A study of Mus musculus with 11 samples.

Results

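Mitochondrial ribosomal protein genes were followed in ribosome-bound RNA of mouse cerebellum. They were taken as every gene whose symbol begins with Mrpl or Mrps and a number, without the pseudogenes marked -ps, which gave 78 of the 55421 genes listed. Of these, 77 passed the filter on low counts that left 13375 genes for testing. Mrpl53, a protein of the large subunit, did not pass, with 7 reads over all 11 libraries. The libraries came from 11 animals at postnatal day 56. The 7 control animals (WT, Pcp2Cre;Rpl22HA/HA) carried Cre under the Pcp2 promoter, which is active in Purkinje cells, and a ribosomal protein Rpl22 with an HA tag. The 4 knockout animals (KO, Pcp2Cre;Tie2flox/flox;Rpl22HA/HA) carried the same alleles and floxed Tie2, a receptor for angiopoietins encoded by Tek. Tagged ribosomes were pulled down from whole cerebellum with an antibody against HA, so RNA of other cells can be carried along, and the same pull-down was used in both groups. Cre was constitutive. Batch 1 held KO F371 and M374 and WT M379, batch 2 held KO M390 and WT M386, and batch 3 held KO M456 and WT F473, M476, M477, M479 and M480, named here by animal tag.

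The mitochondrial ribosome makes the few proteins encoded by mitochondrial DNA, which are core parts of the respiratory chain and ATP synthase. Its RNAs come from mitochondrial DNA, but its proteins are encoded in the nucleus, translated on cytosolic ribosomes and imported. The mRNAs counted here are therefore bound to cytosolic ribosomes. Proteins of the large subunit mostly carry the prefix Mrpl and those of the small subunit Mrps. Many have a bacterial relative, and others are found only in mitochondrial ribosomes. Inherited defects of several of them, such as MRPS22, MRPS34, MRPL3 and MRPL12, cause combined failure of the respiratory chain, often with brain disease. Purkinje cells fire without pause and have a high demand for ATP.

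Reads in genes numbered 2.58 to 4.2 M (M, units of 1000000 reads) in the KO libraries and 4.09 to 5.14 M in WT. Within batches the log2 total was -0.47 in KO relative to WT, and no other arrangement of labels gave as large a difference (exact permutation within batch, two-sided, 36 arrangements, p = 0.0278). Without KO M456 the value was -0.20 (exact permutation p = 0.167). Batch 3 then held no KO, and this was the smallest p that the arrangements left could give. Tek had 0, 7, 0 and 14 reads in KO F371, M374, M390 and M456 and 1, 0, 12, 11, 21, 8 and 40 in WT M379, M386, F473, M476, M477, M479 and M480. KO and WT overlapped (log2 fold change 0.87 ± 0.95, SE, edgeR adjusted p = 0.52), so Tek could not check the labels. All 10 Purkinje cell markers passed the filter, 2 of them rose in KO (Calb1 and Car8), and their summed level was 4193 to 5870 CPM (counts per 1000000, scaled between libraries) in KO and 4272 to 4934 CPM in WT. Of 9 granule cell markers 6 rose in KO and 0 fell, and of 8 Bergmann glia and astrocyte markers 5 rose and 0 fell. Their summed levels were 470 to 1282 and 308 to 878 CPM in KO, against 338 to 689 and 232 to 429 CPM in WT. Of 9 oligodendrocyte markers 2 rose and 0 fell, with sums of 316 to 954 CPM in KO and 281 to 706 CPM in WT. No marker of these 4 lists was at 0 in a library except Zic2, a granule cell gene, in WT M379. Microglia, endothelial and mural, interneuron and choroid plexus markers had 3 of 6, 1 of 5, 2 of 5 and 1 of 4 tested genes higher and 0 lower. Their sums were 13.9 to 69.9, 18.9 to 114, 152 to 218 and 181 to 386.3 CPM in KO and 12.0 to 34.8, 10.2 to 92.1, 88.2 to 185 and 216 to 315 CPM in WT. The part of these cells in the results below was not tested beyond a fit with a purity score, and fewer cells of a type cannot be told apart from less RNA per cell.

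Upstream sequences are shown for 4 genes, to show what upstream letters the genes share; 20 of the genes were called as changed in KO, as described further on. RefSeq start sites in GRCm38.p6 gave 75 windows for 69 of the 78 genes, from 250 bases before the start to 50 after it. Mrps18b, Mrpl22 and Mrpl10 are the genes called lower in KO whose window holds CGCATGCG, the core of the motif of NRF1, a regulator of nuclear genes for mitochondria. Mrpl43 had the largest rise, and its window holds CCGGAAG, the core of ETS factor motifs, in 2 places. The 250 bases before the start are printed 5′ to 3′ on the gene's strand, with matches to either motif in capitals. They lie at chr17:35916441-35916690 (minus strand), chr11:58171414-58171663 (plus), chr11:97041332-97041581 (plus) and chr19:45006443-45006692 (minus), in the order printed. The span of Mrpl22 begins at 58170043, so the start used for it lies inside the gene.
Mrps18b: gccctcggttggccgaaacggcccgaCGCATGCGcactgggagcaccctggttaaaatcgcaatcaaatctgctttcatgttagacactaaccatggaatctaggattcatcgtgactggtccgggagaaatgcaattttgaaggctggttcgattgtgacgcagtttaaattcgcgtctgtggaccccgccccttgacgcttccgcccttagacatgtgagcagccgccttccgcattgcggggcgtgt
Mrpl22: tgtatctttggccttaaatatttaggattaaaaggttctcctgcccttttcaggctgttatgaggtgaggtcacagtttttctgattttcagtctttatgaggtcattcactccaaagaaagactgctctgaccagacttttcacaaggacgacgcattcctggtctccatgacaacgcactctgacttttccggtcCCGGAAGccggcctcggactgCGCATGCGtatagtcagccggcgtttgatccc
Mrpl10: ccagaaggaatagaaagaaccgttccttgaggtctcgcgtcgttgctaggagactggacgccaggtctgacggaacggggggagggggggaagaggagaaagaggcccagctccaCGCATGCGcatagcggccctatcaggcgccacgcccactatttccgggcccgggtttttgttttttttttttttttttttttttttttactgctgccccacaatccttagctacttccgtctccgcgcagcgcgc
Mrpl43: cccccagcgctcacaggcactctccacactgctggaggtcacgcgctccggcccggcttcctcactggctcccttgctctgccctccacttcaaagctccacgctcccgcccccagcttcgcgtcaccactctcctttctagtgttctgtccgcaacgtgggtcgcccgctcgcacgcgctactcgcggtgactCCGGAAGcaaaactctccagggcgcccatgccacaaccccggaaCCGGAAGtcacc
The match to CGCATGCG begins 224 bases before the start in Mrps18b, 32 in Mrpl22 and 135 in Mrpl10. In Mrpl22 a CCGGAAG lies 53 bases before the start, and in Mrpl43 they lie 56 and 12 bases before it.

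Searched on both strands, CCGGAAG was found in 26 of the 69 genes with a window (37.7%), against 19.7% of 10171 tested genes with a window and 9.93% of all 27025 genes with one. CGCATGCG, which reads the same on both strands, was found in 7 (10.1%), against 4.38% and 2.07%. AAGATGGCG, a core of the YY1 motif, was found in 8 (11.6%), against 3.60% and 1.64%, and GGGCGG, bound by SP factors, in 34 (49.3%), against 68.5% and 38.2%. Of the 9 genes with a window that were lower in KO, 3 held CGCATGCG and 5 held CCGGAAG, and of the 8 that were higher these numbers were 0 and 4. These are counts of letters in a window, with no test, and a match need not be a bound site.

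The clearest pattern across the genes was seen without the knockouts. In the 7 WT libraries, 73 of the 77 tested genes had a lower level in libraries with more reads, where 48.6% of all tested genes did so. The median slope was -1.37 on the log2 scale per doubling of the library total (quartiles -1.61 and -0.85), against 0.05 for all tested genes. The 4 exceptions were Mrps2 (1.03 ± 0.63, SE), Mrps5 (0.68 ± 0.59), Mrpl9 (0.27 ± 0.39) and Mrpl10 (0.08 ± 0.55), named after their values were seen. The sign of Mrps5, Mrpl9 and Mrpl10 turned under some settings. No gene passed at an adjusted p under 0.05 (edgeR quasi-likelihood test, Benjamini-Hochberg over 13375 genes, 0% called, smallest adjusted p 0.241), nor by the Wald test of DESeq2 (0 called). In simulated counts the edgeR test called 1% of genes given a slope of 2 in size and 24% of those given 4. The simulated spread was fitted with no slope term, and 100 genes of any level were changed per size. These shares thus need not hold for the 77 genes. The lack of calls alone does not show a lack of slopes. At an unadjusted p under 0.05, 43 of the 77 were falling and 0 rising by edgeR, where 9.63% of all tested genes were falling and 6% rising, and 22 passed by DESeq2.

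Summed over the 77 genes, the level in WT was lowest at 7604 CPM in M479 and highest at 9335 CPM in M379, with a median of 7982 CPM. M379, M476 and M386, with totals of 4.19, 4.09 and 4.34 M, held 9335, 9273 and 9132 CPM. F473, M477, M479 and M480, with totals of 4.57 to 5.14 M, held 7982, 7768, 7604 and 7632 CPM. The libraries thus formed a high and a low set with no value between 7982 and 9132 CPM. Since they fall into separate sets, no pooled correlation is given, and the slope of the log2 sum, -1.05 ± 0.18 (SE) per doubling of the total, is a description. In the 5 WT libraries of batch 3 the slope was -0.87 ± 0.19, but without M476 the slope was -0.36 ± 0.13 over 4 libraries. Likewise the median slope of the genes was -1.33 in batch 3 and -0.45 in batch 3 without M476, where 55 of 77 slopes were below 0 and 0 had an unadjusted p under 0.05. M476 thus carried most of the slope within batch 3, and the other high libraries, M379 and M386, were the WT of batches 1 and 2. Library total and batch cannot be told apart for them.

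**Figure D1:**
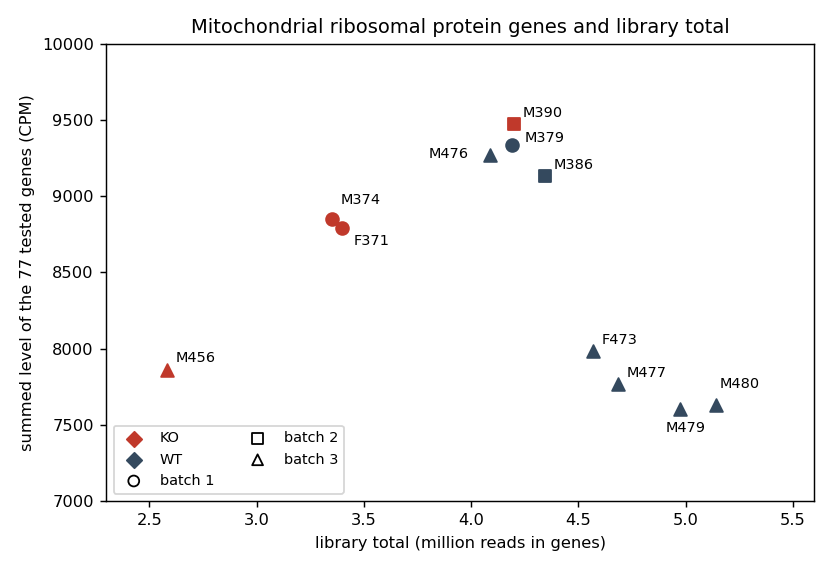
Summed level of the 77 tested genes in CPM (vertical axis, not from 0) against library total in M reads (horizontal axis), 1 point per library, coloured by group and shaped by batch. WT libraries with 4.57 M reads or more sit at 7604 to 7982 CPM and the other 3 at 9132 to 9335 CPM, while KO M456, the shallowest at 2.58 M, sits at 7862 CPM.

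Purity moved with the same split. The purity score, in which Purkinje markers count up and granule cell and glial markers count down, was 3.79, 3.20 and 3.68 in M379, M476 and M386. It was 2.78, 2.59, 3.16 and 2.77 in F473, M477, M479 and M480. All 3 high libraries thus scored above the 4 low ones, though M476 at 3.20 was close to M479 at 3.16. With the score as a further term, a setting added after the data were seen, the median slope was -1.19 and 72 of 77 slopes were below 0. In that fit 27 of the 77 had an unadjusted p under 0.05 by edgeR, against 43 without the score. Over all 13375 tested genes these numbers were 1092 and 2090. Purkinje markers had a median slope of -0.53 per doubling, with 7 of 10 below 0 and 5 falling at an unadjusted p under 0.05. Granule cell markers and Bergmann glia and astrocyte markers had medians of 1.03 and 1.77.

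**Figure D2:**
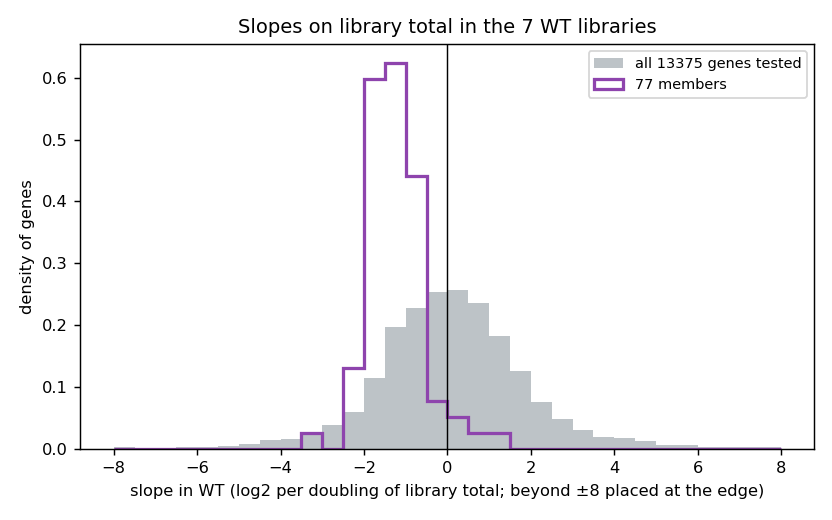
Slopes on library total in the 7 WT libraries, as log2 change per doubling (horizontal axis), shown as density for all 13375 tested genes (grey) and for the 77 mitochondrial ribosomal protein genes (line). The 77 centre on -1.37 and all tested genes on 0.05.

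Steep single slopes were found in both subunits. Mrpl33, a small protein with a bacterial relative, had a slope of -2.40 ± 0.75 (SE), with 56.1, 47.9 and 51.8 CPM in M379, M476 and M386 and 30.9 to 39.6 CPM in the other 4 WT libraries. Its range in the 3 high libraries did not overlap that in the other 4. The high and low sets were formed on a sum that holds this gene, so the split is no separate support. Mrpl22 split likewise (60.6 to 66.0 CPM against 42.3 to 45.7 CPM). Mrps24, a relative of bacterial S3 at the entry of the mRNA channel, had a slope of -2.25 ± 0.62, Mrpl22, which lines the exit tunnel, -2.22 ± 0.59, and Mrps34, found only in mitochondrial ribosomes, -2.12 ± 0.68. These 4 were chosen after their values were seen, and the sign of Mrps24 and Mrps34 turned in batch 3 without M476. Mrpl23 (-3.23 ± 1.43) and Mrps10 (-2.18 ± 0.95) were also steep, with larger SE. The large and small subunits had similar median slopes, -1.36 over 50 genes and -1.34 over 26. Genes with a bacterial relative and those found only in mitochondria had medians of -1.39 over 47 and -1.22 over 29.

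The KO libraries did not continue the line of the WT libraries toward lower totals. KO M390, with 4.2 M reads, held 9473 CPM, near WT M379 and M476 of similar totals. KO F371, M374 and M456, with 3.4, 3.35 and 2.58 M reads, held 8789, 8852 and 7862 CPM. Within batches the log2 summed level was -0.03 ± 0.07 (SE) in KO against WT, -0.04 ± 0.07 for the large subunit and 0.01 ± 0.07 for the small. The ratio of small to large subunit sums was 0.426 to 0.446 in KO and 0.410 to 0.441 in WT, a within-batch log2 difference of 0.05 ± 0.01 given with no test. The groups overlapped in each of these sums.

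While the sums overlapped, single genes differed between KO and WT in both directions. Of the 77 genes 20 were called between KO and WT within batch (25.97%), where 24.4% of all tested genes were called, 8 higher (10.4%; 10.9% of all) and 12 lower (15.6%; 13.4% of all) (edgeR quasi-likelihood test with batch, adjusted p under 0.05). These shares lie near the background, so the number of calls says nothing particular about these genes. The median log2 fold change was -0.06 (quartiles -0.35 and 0.21), against -0.02 for all tested genes. KO and WT values did not overlap in 11 of the 77 genes, 8 with KO higher and 3 with KO lower, where 13% of all tested genes did not overlap, 6.2% with KO higher and 6.77% with KO lower. No call was left without WT M379, the only WT of batch 1, or without KO M456, the only KO of batch 3 (0 by edgeR in each, with 20 and 14 of the 77 at an unadjusted p under 0.05). In those fits 3.89% and 2.49% of all tested genes were called. Each of them left a batch with only KO or only WT. With batch as a term, such a batch adds nothing to the KO against WT difference. Leaving out KO M390 or WT M386 did the same to batch 2, and 29 and 30 of the 77 were called (37.7% and 39%). In both of those fits 34.5% of all tested genes were called. With the library total or the purity score as a covariate, 0 of the 77 and 0 of all 13375 tested genes were called (6 and 9 of the 77, and 13.8% and 13.3% of all, at an unadjusted p under 0.05 by edgeR). Without WT M476 31 of the 77 were called (40.3%), and 30.3% of all tested genes. The threshold falls between Mrpl50 (adjusted p = 0.0492) and Mrps26, Mrpl39 and Mrpl45 (0.05005, 0.0502 and 0.0514).

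**Figure D3:**
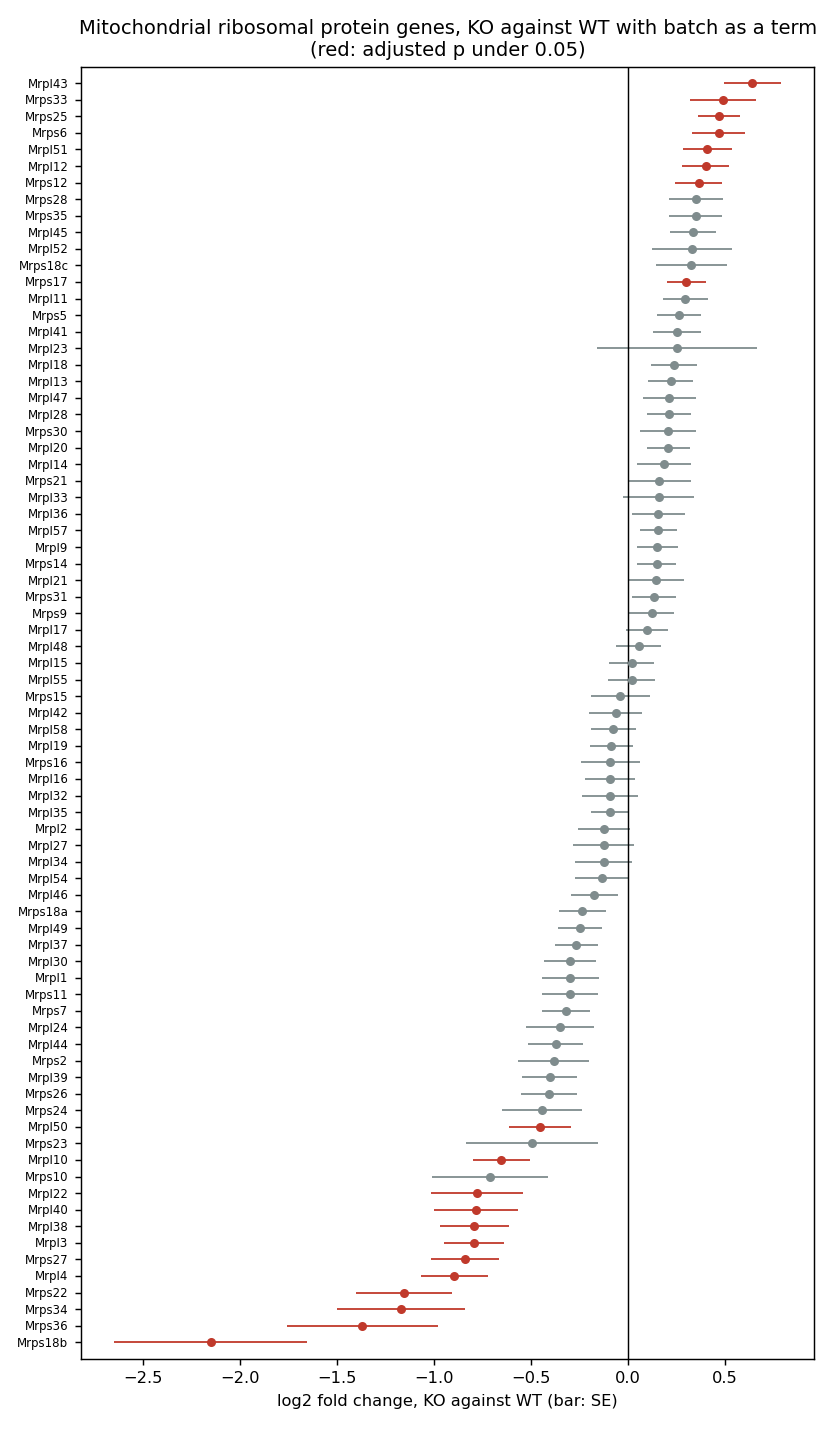
Log2 fold change of each of the 77 tested genes in KO against WT with batch as a term (horizontal axis; bars show SE), ordered by size, with genes called at an adjusted p under 0.05 in red. Values run from -2.15 in Mrps18b to 0.64 in Mrpl43, with 12 genes called lower and 8 higher.

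Among genes lower in KO, the small subunit held the steepest falls. Mrps18b encodes 1 of 3 mammalian relatives of bacterial S18 and lies on chromosome 17 from 35910380 to 35916440 (GRCm38). It had 5.51, 4.75 and 2.01 CPM in KO F371, M374 and M456, from 19, 16 and 5 reads, and 35.9 CPM in KO M390, from 152 reads. In WT it ranged from 28.4 to 44.4 CPM with a median of 33.7, from at least 139 reads each. KO F371, M374 and M456 were thus far below every WT library, while M390 lay inside the WT range. The fitted change was -2.15 ± 0.50 on the log2 scale (SE; adjusted p = 0.00776 by edgeR), with within-batch log2 ratios of -2.62, 0.03 and -3.76. It missed the threshold by limma-voom (-1.48, adjusted p = 0.0509), with no batch term (-1.45, 0.0593 by edgeR), with either covariate (-1.26 and -1.11), and without WT M379 (-1.66) or KO M456 (-1.50). Without KO M390 it was -3.17. The gene product's other relatives were not called. Mrps18a, whose protein sits in the large subunit in spite of its name, had a value of -0.24 ± 0.12 (adjusted p = 0.159 by edgeR), and Mrps18c, the form nearest to bacterial S18, 0.33 ± 0.18 (0.200).

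Mrps34, Mrps22 and Mrps27 encode small subunit proteins with no bacterial relative. Mrps34 (chromosome 17, 24895120 to 24896289) had 30.5, 24.6, 48.2 and 7.63 CPM in KO F371, M374, M390 and M456 and 37.3 to 59.6 CPM in WT, a log2 fold change of -1.17 ± 0.33 (edgeR adjusted p = 0.0202). Mrps22 (chromosome 9, 98588730 to 98601679) had 48.5, 56.7, 116 and 27.7 CPM in the same KO libraries and 87.9 to 130 CPM in WT, a change of -1.16 ± 0.25 (0.00561). In both, M390 was the only KO library inside the WT range. Mrps27 (chromosome 13, 99344767 to 99415562), which binds RNA, fell by 0.84 ± 0.17 on the log2 scale (edgeR adjusted p = 0.00481), from 93.5 ± 10.1 CPM in WT to 59.6 ± 23.7 in KO (SD, n = 7 and 4).

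Mrps36 (chromosome 13, 100735940 to 100744659) follows the rule by its symbol, but its product is now known as a subunit of the alpha-ketoglutarate dehydrogenase complex of the citric acid cycle. It had 8.42, 3.56, 22.9 and 6.83 CPM in KO F371, M374, M390 and M456 and 16.1 to 28.7 CPM in WT. The fitted log2 change was -1.37 ± 0.39 (SE; edgeR adjusted p = 0.0206), again with M390 inside the WT range. Pseudogenes of this gene in the files held 13, 6 and 0 reads over all libraries. How reads shared with such copies were counted is not known here, so its level is uncertain.

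In the large subunit 7 genes fell, by 0.45 to 0.90 on the log2 scale. Mrpl4 (chromosome 9, 21001252 to 21008839), a relative of bacterial L4 that lines the exit tunnel, had 58.9, 58.8, 108 and 65.9 CPM in KO F371, M374, M390 and M456 and 118 to 169 CPM in WT. KO and WT did not overlap, and the log2 fold change was -0.90 ± 0.17 (edgeR adjusted p = 0.00377). Mrpl38 (chromosome 11, 116131817 to 116138868), of the central protuberance, had 45.9, 72.4, 61.4 and 48.6 CPM in KO and 87.4 to 120 CPM in WT, a change of -0.79 ± 0.18 (0.00672). Mrpl10 (chromosome 11, 97041582 to 97049213), which anchors the stalk that recruits translation factors, had 58.6, 55.5, 87.9 and 76.3 CPM in KO and 95.7 to 126 CPM in WT, a change of -0.65 ± 0.15 (0.00694). In these 3 genes M390 too lay below every WT library, and within-batch log2 ratios in batch 2 were -0.14, -0.50 and -0.12.

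Of the other large subunit genes, Mrpl3, a relative of bacterial L3 near the peptidyl transferase centre, fell by 0.79 ± 0.15 (log2, SE). Its level was 111, 90.6 and 92.4 CPM in KO F371, M374 and M456, 214 CPM in M390 and 143 to 239 CPM in WT. Mrpl40, of the central protuberance, fell by 0.78 ± 0.21 and Mrpl22 by 0.78 ± 0.24. Mrpl50 fell by 0.45 ± 0.16, from 165 ± 45.4 CPM in WT to 156 ± 53.2 in KO (SD, not adjusted for batch); with no batch term its value was -0.08 (adjusted p = 0.838, edgeR). In the fit with batch these 4 had adjusted p from 0.00377 to 0.0492 (edgeR).

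Among genes higher in KO, changes ran from 0.30 to 0.64 on the log2 scale, smaller in size than most of the falls. Mrpl43 (chromosome 19, 45005014 to 45006442), found only in mitochondrial ribosomes, had 122, 133, 84.4 and 149 CPM in KO F371, M374, M390 and M456 and 69.7 to 96.8 CPM in WT. The rise was 0.64 ± 0.15 on the log2 scale (SE; edgeR adjusted p = 0.00797), with only M390 inside the WT range. It shares 780 bases with Twnk, the mitochondrial DNA helicase, which rose by 0.80 ± 0.25 (0.0317), so the split of reads between them is uncertain. Mrps25 (chromosome 6, 92169512 to 92184023), a small subunit protein, had 266, 256, 195 and 282 CPM in KO and 161 to 192 CPM in WT, without overlap. It rose by 0.47 ± 0.11 (edgeR adjusted p = 0.0076), while Nr2c2, with which it shares 3547 bases, had a value of -0.15 ± 0.18 (0.573).

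Mrps33, Mrps17 and Mrpl51 were also higher in every KO library than in every WT. Mrps33 had 68.3 to 70.7 CPM in KO and 36.3 to 64.0 CPM in WT, a log2 fold change of 0.49 ± 0.17. Mrps17, a relative of bacterial S17, had 186 to 210 CPM in KO and 141 to 175 CPM in WT, a change of 0.30 ± 0.10. Mrpl51 had 99.0 to 143 CPM in KO and 85.5 to 98.9 CPM in WT, a change of 0.41 ± 0.13. Their edgeR adjusted p ran from 0.0301 to 0.0463.

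Mrpl12, Mrps12 and Mrps6 rose with M390 inside the WT range. Mrpl12, the stalk protein that is also reported to bind the mitochondrial RNA polymerase, had 175, 168, 143 and 217 CPM in KO F371, M374, M390 and M456 and 123 to 166 CPM in WT (0.40 ± 0.12 on the log2 scale, SE, edgeR adjusted p = 0.0278). Mrps12, the relative of the S12 protein of the decoding centre, rose by 0.36 ± 0.12 and Mrps6 by 0.47 ± 0.14 (0.0412 and 0.0227). Mrps6 shares 29138 bases of its span with Slc5a3, an inositol transporter gene, which had a value of 0.56 ± 0.27 (0.134). Mrpl12 and Mrpl10, partners in the stalk, were thus called in opposite directions. Mrps30, whose protein is part of the large subunit, had a value of 0.21 ± 0.14 (0.305).

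**Figure D4:**
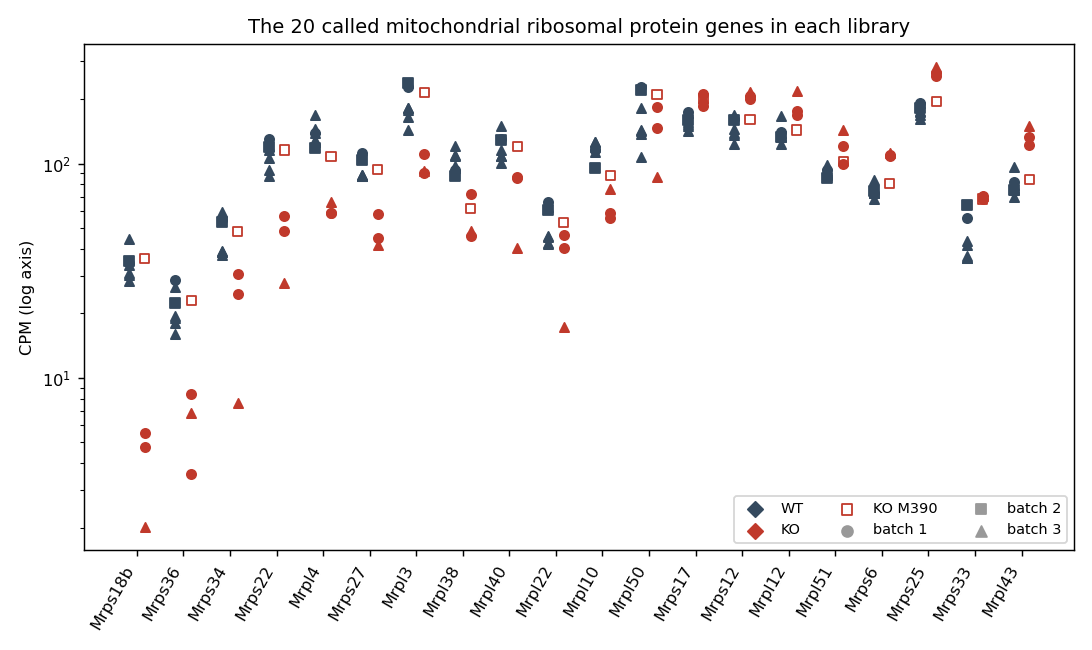
Level of the 20 called genes in each library (vertical axis, CPM, log scale), WT left and KO right of each position, shaped by batch, with KO M390 drawn open. In Mrps18b the KO libraries other than M390 sit at 2.01 to 5.51 CPM and M390 at 35.9 CPM, inside the WT range of 28.4 to 44.4.

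KO M390 stood apart across the called genes. Of the 12 falling genes it was below every WT library in 3 and inside the WT range in 9, while F371, M374 and M456 were below every WT library in 11, 10 and 12. Of the 8 rising genes M390 was above every WT library in 4, and the other KO libraries in all 8. The called genes were picked on these same values, so the libraries that drive the calls lie outside WT by selection. Over all 77 tested genes M390 was above every WT library in 24, against 26, 29 and 20 in F371, M374 and M456. In 4 of the 77 M390 was below every WT library, against 19, 18 and 38. Without that selection M390 thus differed on the low side only. For the falling genes, median log2 ratios were -1.06 (batch 1), -0.13 (batch 2) and -1.28 (batch 3). For the rising genes they were 0.32, 0.11 and 0.64. All lower and higher genes of the whole table showed the same order, with medians of -1.0, -0.25 and -1.06 and of 0.82, 0.20 and 0.87. M390 also had the largest library total of the KO libraries and a purity score of 3.46, against 3.09, 2.20 and 2.01 in F371, M374 and M456. Without M390, 29 of the 77 genes were called, 10 higher and 19 lower (37.7%), and 34.5% of all tested genes. With 1 library of each group in batch 2, the difference between batches was not tested.

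By position in the ribosome, calls were spread. Of all tested genes 10.9% were called higher and 13.4% lower. Of the 50 tested large subunit genes 3 rose (6%) and 7 fell (14%), with a median log2 change of -0.07. Of the 26 small subunit genes 5 rose (19.2%) and 4 fell (15.4%), with a median of 0.04. Among genes with a bacterial relative 4 of 47 rose (8.5%) and 5 fell (10.6%). Among those found only in mitochondria 4 of 29 rose (13.8%) and 6 fell (20.7%). In the stalk 1 of 4 rose and 1 fell, in the central protuberance 0 of 8 rose and 2 fell, and at the outer end of the exit tunnel 0 of 7 rose and 1, Mrpl22, fell; Mrpl4, deeper in the tunnel, is not among these 7. The difference between these groups was not tested.

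Other genes that build or serve the mitochondrial ribosome were lower more often than higher. Over 6 lists 3 of 77 tested genes rose (3.9%) and 22 fell (28.6%), with a median log2 fold change of -0.21. Of all tested genes 10.9% rose and 13.4% fell. The synthetases described next held 11 of the 22 falls. The lists share the control libraries and batches with the counts above and were not tested as groups. Among mitochondrial aminoacyl-tRNA synthetases and their partners, which charge tRNAs, 11 of 20 fell and 0 rose, with a median of -0.54. Gatc, part of the enzyme that makes glutaminyl-tRNA, fell from 107 ± 7.95 CPM in WT to 49.1 ± 17.9 in KO (SD, n = 7 and 4; log2 fold change -1.07 ± 0.19, SE, edgeR adjusted p = 0.00287). Cars2 and Rars2, which charge the tRNAs for cysteine and arginine, fell by 1.81 ± 0.39 and 0.63 ± 0.18. Their median slope in the WT libraries was 0.17, with 7 of 20 below 0, against -1.37 in the ribosomal protein genes. The 5 ribosomal proteins with other symbols had a median slope of -1.35, with 4 below 0, and the 13 translation factors -0.68, with 12 below 0. The differences between lists were not tested.

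Assembly factors had 1 of 24 genes higher (4.2%) and 5 lower (20.8%). Of all tested genes 10.9% were higher and 13.4% lower, and 25% of assembly factors and 24.4% of all tested genes were called. Rbfa, which matures the small subunit RNA, fell from 39.7 ± 8.51 to 6.87 ± 8.10 CPM (SD), a log2 fold change of -2.85 ± 0.51 (edgeR adjusted p = 0.00283). It had 0.87, 1.19, 18.2 and 7.23 CPM in KO F371, M374, M390 and M456 and 24.9 to 51.6 CPM in WT. In F371 and M374 it was near the floor of 3 reads (0.882 and 0.895 CPM), so the size of the fall is uncertain. The GTPase genes Mtg2 and Eral1 and the methyltransferase gene Mrm3 fell by 1.79 ± 0.43, 1.51 ± 0.41 and 0.57 ± 0.16, and Ngrn rose by 0.29 ± 0.10. Of 13 tested translation factors 2 fell (15.4%, near the share of all tested genes) and 0 rose. Oxa1l, which inserts new proteins into the inner membrane, was at -0.63 ± 0.18 and the elongation factor gene Tufm at -0.87 ± 0.26. Of 5 ribosomal proteins with other symbols, Ptcd3 and Chchd1, both of the small subunit, fell by 1.00 ± 0.24 and 0.65 ± 0.23. Among 6 genes of mitochondrial transcription and mRNA stability Tfam rose by 0.41 ± 0.12 and Tefm fell by 0.87 ± 0.24. Among 9 regulators Ppargc1a, a coactivator of mitochondrial biogenesis, rose by 0.47 ± 0.12 and Yy1 fell by 0.46 ± 0.15, while Nrf1 and Gabpa had values of 0.20 ± 0.18 and 0.35 ± 0.28 (edgeR adjusted p = 0.44 and 0.37). These last 2 were named after their values were seen.

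**Figure D5:**
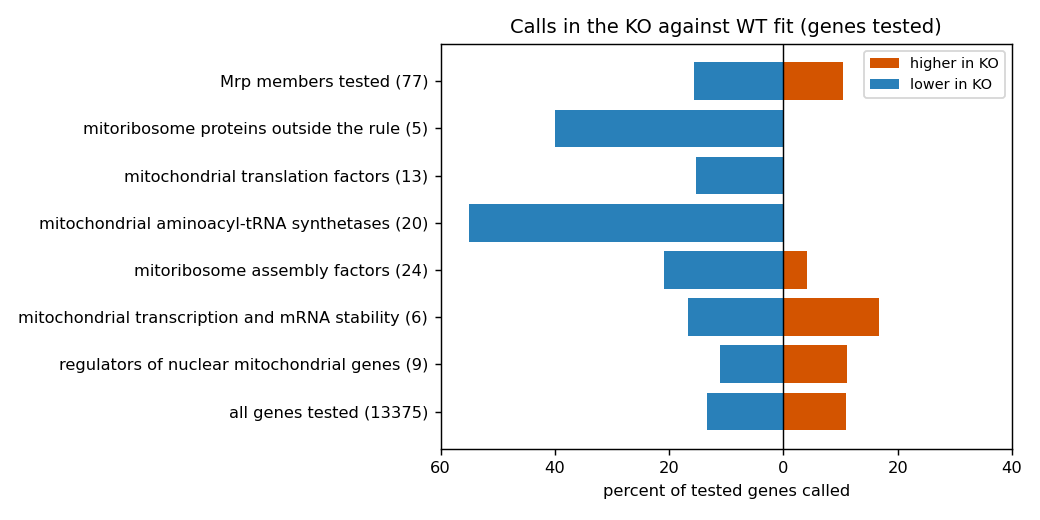
Percent of tested genes called higher (right) or lower (left) in KO at an adjusted p under 0.05, for the mitochondrial ribosomal protein genes, the 6 related lists and all tested genes, with the number tested in brackets. The synthetases show 55% lower and 0% higher, and the ribosomal protein genes lie near all tested genes.

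These calls had the same limits as those above. Among the named related genes that fell, KO M390 lay inside the WT range in Rars2, Mtg2, Mrm3, Ptcd3, Chchd1 and Yy1. In Tefm it was above every WT library (82.5 CPM, with 38.4 to 76.1 CPM in WT). In Gatc, Cars2, Rbfa, Eral1, Oxa1l and Tufm it was below every WT library. Without WT M379 1 of the 77 related genes was called and without KO M456 2, where 3.89% and 2.49% of all tested genes were called. With the library total or the purity score as a covariate 0 of the related genes were called.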

How the data were processed

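Whole-number read counts per gene, 1 file per library, were used as the authors deposited them. Per the submitters' processing notes they came from STAR and HTSeq on GRCm38; for the versions, options and strand setting, the sources used here give nothing. Lines that name no gene were left out. Each library carries its own animal tag, and p-values measure the spread between these libraries. The purity score is the mean log2 CPM of Purkinje markers minus that of granule cell, astrocyte and oligodendrocyte markers. Genes and lists were chosen with earlier results of these data known. Tests used edgeR 4.0.16 under R 4.3.3 on the counts (filterByExpr, TMM factors, quasi-likelihood): genotype with batch as a term (7 residual degrees of freedom), and the log2 library total in the 7 WT libraries (5). Benjamini-Hochberg adjustment ran across the 13375 genes and calls needed an adjusted p under 0.05. Levels in CPM use TMM factors, and within-batch log2 ratios add 0.5 CPM. A standard error is the log2 fold change over the root of its F statistic. The scripts were tested on simulated data. There the genotype test called 32% of genes given a log2 fold change of 1 in size and 66% of those given 2. The simulated spread was fitted with batch alone and 100 genes were changed per size, so these shares need not hold for the data. Named were all called genes, Mrps18a, Mrps18c, Mrps30, Mrps36, Tek and up to 4 called genes per related list and direction, of which 1 is not reported here. DESeq2 1.42.0 and limma 3.58.1 were alternatives. Positions and promoters came from RefSeq (GRCm38.p6), matching 78 genes by symbol. Spans of 25 genes overlap another gene, 5 of them called, and the handling of such reads is unknown. Floors cover counting error only: 3 reads, 0.583 to 1.16 CPM per library.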

Additional observations from a re-analysis of the deposited data

Results flagged for a closer look

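A single library stood far from the rest of its group in 8 of 48 groups of values looked at. The groups were the KO and the WT values of the called genes, Mrps18a, Mrps18c, Mrps30 and the summed level. For independent groups chance gives about 1 in 20. These groups share the same libraries and most genes were picked on these values, so the 8 cannot be set against that rate. In KO, M390 was the library in each of 4 cases. It was the highest in Mrps18b (35.9 CPM, next 5.51), Mrpl4 (108 CPM, next 65.9) and Mrpl3 (214 CPM, next 111) and the lowest in Mrps6 (80.8 CPM, next 108). In WT, M476, the shallowest WT library, was the highest in Mrps18b (44.4 CPM, next 35.1), Mrpl12 (166 CPM, next 140) and Mrps6 (83.5 CPM, next 74.7). WT M386 of batch 2 was the lowest in Mrpl10 (95.7 CPM, next 113).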

How the results depend on the processing

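Against 20 genes called in KO against WT, limma-voom called 12 and fits with the library total or the purity score as a covariate 0. Leaving out 1 library gave 0 to 31, with 0 without WT M379 or KO M456. Each of these takes a batch out of the difference. Leaving out KO M390 or WT M386 does so too, and gave 29 and 30. The cause was not tested. The median log2 fold change of the genes was 0.12 with no batch term and 0.066 with the purity score, and -0.08 to 0.02 with 1 library left out. The median slope in WT was -0.99 by DESeq2, -0.45 in batch 3 without M476, a setting added after the data were seen, and -1.40 to -1.20 with 1 library left out, with 0 slopes called in each. The slope of the summed level was -1.35 without the libraries farthest from the median total, -0.36 in batch 3 without M476, and -1.23 to -0.98 with 1 left out. Related lists had 25 calls, 13 by limma-voom, 0 with either covariate and 1 to 33 with 1 left out. The log2 total difference was -0.61 without batch 2 and -0.61 to -0.20 with 1 left out. Turned signs were those of Mrps12 (-0.020) and Mrps18c (-0.10) with the library total as covariate and of Tek (-0.64 with no batch term, -2.2 with purity). In WT slopes, batch 3 without M476 turned Mrps24 (0.46), Mrps34 (0.32), Mrps5 (-0.32) and Mrpl9 (-0.27). Purity as a term turned Mrps5 (-0.00641) and Mrpl10 (-0.52), and Mrpl10 also turned with library totals alone (-0.023), no filter (-0.00606) and batch 3 alone (-0.37), with -0.17 to 0.63 when 1 was left out. Among fold changes of single named genes under the planned settings other than leaving out a library, 165 values for ribosomal protein genes kept direction and side of the threshold and 63 kept direction only. No paired analysis was possible because no animal tag is shared between groups.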
